A study of Mus musculus with 13 samples.

Results

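Whole-liver RNA of female C57BL/6 mice after 1 week of TAA was compared with that of naive mice of the same sex and strain, to describe the early response of the liver to the toxin. In liver-injury work TAA is the usual abbreviation of thioacetamide. The labels give the abbreviation without a dose, a route or a dosing scheme, and they name no vehicle for the naive mice. The comparison uses 6 of the 13 samples of the series, 3 naive and 3 at 1 week, each hybridised to a single-colour Illumina MouseRef-8 array that carries the letter A, B or C. The other samples were taken after 4 weeks (4) and 6 weeks (3) of TAA and serve below as later points. Genes were included when a named probe had a detection p under 0.01 on at least 3 of the 13 arrays. Of 25697 probes 11212 passed, 10559 of them with a gene symbol. They stand for 8027 of the 16590 genes named on the array. The labels do not say whether samples of a group come from separate mice, so p-values measure only the spread between these samples.

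Thioacetamide is harmless until hepatocytes oxidise it, chiefly through Cyp2e1, to reactive products that bind proteins and lipids. The hepatocytes around the central vein carry most of that enzyme and are injured first. Survivors respond with electrophile defence, macrophages clear the debris, remaining hepatocytes enter the cell cycle, and stellate cells lay down scar when the injury is repeated.

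The arrays were not alike. Mean intensity was 472 to 587 on the naive arrays and 479, 408 and 177 on 1-week arrays A, B and C, and the dim array C detected 8344 probes against 9382 to 10358 on the other 5. Genes Erich5, Zxda, Rhbdl2, Prf1, Ifngr2, Pisd-ps2 and Gm7609 were at least 1 log2 unit higher on 1-week arrays B and C and on all 6-week arrays than on 1-week array A and all naive and 4-week arrays. Whether these 2 sets of arrays were processed apart is not labelled, so counts with array A alone, which shares its set with the naive arrays, are given for most gene groups. Where a named gene outside these 7 lost its call with array A alone, its paragraph says so. That fit rests on 1 array at 1 week and takes its spread from the other arrays. A call lost there therefore does not show that the change was smaller on array A. Naive array A also stood apart, with 12 genes at least 2 log2 units above both other naive arrays, against 0 for naive array B and 2 for naive array C, a threshold chosen after the values were seen. Of 7 hepatocyte markers 6 were detected on all 6 arrays, while no white fat or skeletal muscle marker was detected on any and 1 or 2 of 11 exocrine pancreas markers were.

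Values below are normalized log2 intensities, and a change is the 1-week mean minus the naive mean, so a change of 1 is a 2-fold difference between groups on a scale that normalization sets for each array. Calls required an adjusted p under 0.05 in limma's moderated test, with Benjamini-Hochberg adjustment over all 8027 genes. At that threshold 2051 genes were called, 25.6% of those tested, with 1067 higher (13.3%) and 984 lower (12.3%) at 1 week. At least 2-fold changes were seen in 430 of the higher and 397 of the lower genes. The 1-week and naive arrays did not overlap for 36.3% of all genes tested and for 1927 of the called genes. Array A alone against the naive arrays gave 1148 calls (14.3%), and arrays B and C without it 1827 (22.8%). These fits shared 730 called genes, and no gene called both with all 3 arrays and in either of the others changed sign. Median centring in place of quantile normalization moved the median of all genes to 0.197 and the share of calls that were higher from 52.0% to 63.4%. The median change over all genes was 0.02, against which the medians of gene groups below are to be read. Counts of calls in these groups are to be read against the 25.6% (13.3% higher, 12.3% lower) of all genes. Counts and medians of a group cover only members that passed the detection filter, and a gene that passed only through the group where it is high had to differ. Medians over all members on the array, without the filter, are therefore given for several groups. In whole liver, fewer cells of a type and less RNA per cell cannot be told apart.

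**Figure D1:**
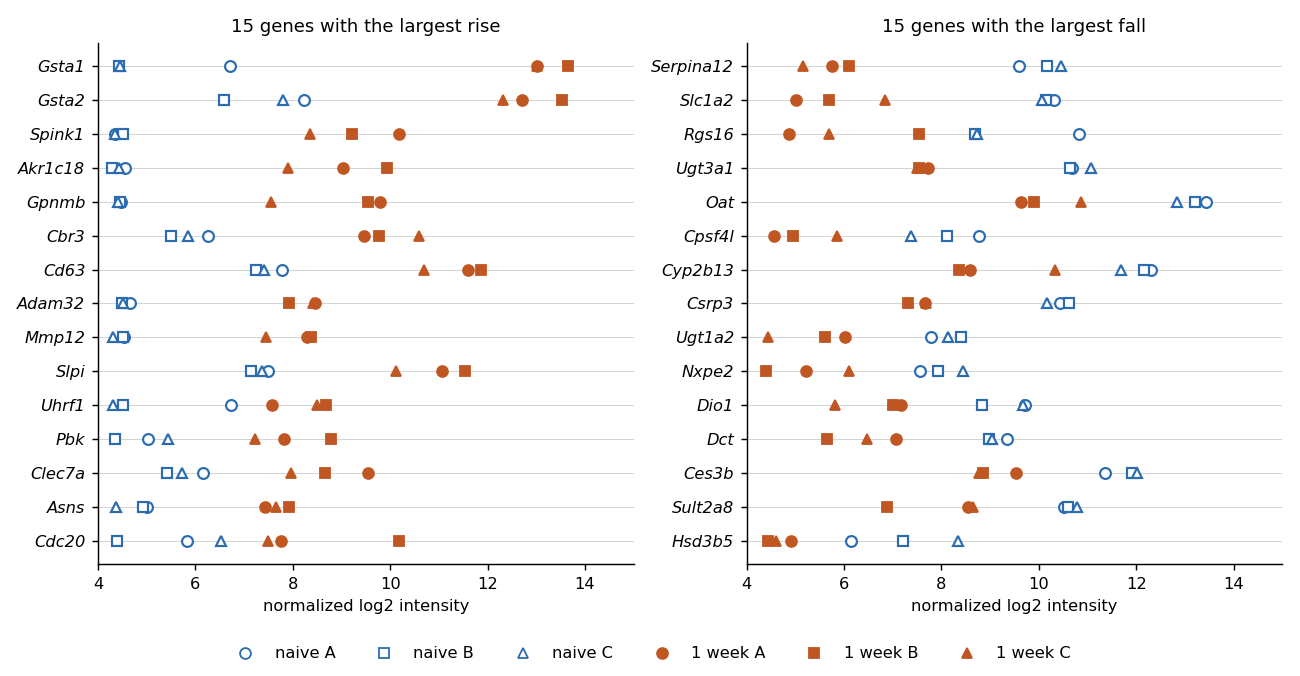
Normalized log2 intensity of the 15 genes with the largest rise (left) and the 15 with the largest fall (right) at 1 week, each point an array. Open blue symbols are naive and filled orange symbols 1-week arrays A, B and C, and in each row the groups do not overlap.

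Electrophile detoxification held the largest rise. Gsta1, an alpha-class glutathione transferase, stood at 6.72, 4.42 and 4.45 on naive arrays A, B and C and at 13.01, 13.65 and 13.02 on the 1-week arrays. All 1-week arrays lay above all naive arrays, of which array A alone detected the gene. The change was 8.03 ± 0.48 (SE from the fit of all 13 arrays, groups of 3 and 3, adjusted p = 4.24e-07). It was 7.36 with the undetected arrays raised to their lowest detected signal. Its neighbour in the family, Gsta2, went from 8.22, 6.59 and 7.80 to 12.70, 13.54 and 12.32. Gsta4, which conjugates lipid peroxidation products, rose by 1.76 ± 0.26 and Gstm1 by 1.37 ± 0.21, whereas the theta-class Gstt1 fell by 0.75. In all, 8 of the 20 glutathione transferases tested rose and 3 fell, with a median of 0.23 (0.42 without 1-week array A). The 3 that fell became 5 without 1-week array B and 1 with array A alone, where Gstt1 was not called. The closely similar sequences of Gsta1 and Gsta2 mean that their probes may share signal.

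Enzymes controlled by the oxidative-stress factor NRF2 rose in part. The carbonyl reductase Cbr3 stood at 6.26, 5.50 and 5.84 on naive arrays and at 9.47, 9.77 and 10.59 at 1 week (4.08 ± 0.50, adjusted p = 1.36e-04), and its second probe rose by 2.88. Sulfiredoxin, Srxn1, which repairs oxidised peroxiredoxins, rose by 2.01 ± 0.31 and the quinone reductase Nqo1 by 1.04 ± 0.20. The cystine importer Slc7a11 was undetected on naive arrays and at least 1.94-fold higher (adjusted p = 0.0274), with array C at 4.62 close to naive and arrays A and B at 6.99 and 7.48. It was not called with array A alone (adjusted p = 0.064). Haem oxygenase, Hmox1, changed by 0.42 ± 0.36 (adjusted p = 0.433). Of 18 NRF2 targets 9 rose and 1, catalase (Cat), fell, with a median of 0.66 (0.49 over all 21 on the array). Array A alone called 3 higher, and Cat was not called without naive array A, B or C or 1-week array A. Among 21 aldo-keto reductases and aldehyde dehydrogenases 7 rose and 3 fell (median 0.33), and leaving out naive array B or C left 4 that rose. Of the 3 that fell 1 was left without naive array A or C or 1-week array C, and with array A alone 2 rose and none fell. Akr1c18, a 20-alpha-hydroxysteroid dehydrogenase that inactivates progesterone, was undetected in naive liver and reached 9.04, 9.94 and 7.90, at least 11.7-fold higher (adjusted p = 5.29e-05). Akr1c19 rose by 1.98 ± 0.25.

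Genes of DNA replication rose broadly. The helicase subunit Mcm6 was at 6.49, 4.92 and 5.69 on the naive arrays and at 7.86, 9.06 and 8.40 at 1 week. Groups did not overlap, and the change was 2.74 ± 0.36 (adjusted p = 1.98e-04), with the gene's 2 other probes at 2.12 and 1.67. Uhrf1, which carries DNA methylation through replication, went from 6.72, 4.52 and 4.31 to 7.57, 8.68 and 8.49. Naive array A was the highest naive array for both of these genes and for Mcm5 (7.22 against 5.35 and 5.48), so the Uhrf1 change of 3.06 became 3.83 without it. Of 24 replication and S-phase genes tested 18 rose and none fell, with a median of 1.10 (0.99 over all 30 on the array) and array medians of 1.04, 1.42 and 1.08 for A, B and C. The count was 11 with array A alone and 12 without naive array C. Thymidine kinase, Tk1, changed by -0.06 and Mcm10 by -0.55, neither called.

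Mitotic genes rose too, but unequally across the 1-week arrays. Cdc20, which activates the complex that starts anaphase, was at 5.83, 4.39 and 6.52 on naive arrays and at 7.76, 10.19 and 7.49 at 1 week. Prc1, which bundles microtubules of the central spindle, was at 6.64, 5.35 and 5.73 and then at 7.73, 10.41 and 7.71. In both genes array B was more than 2 log2 units above arrays A and C, although all 3 were above every naive array. The changes were 2.90 ± 0.60 and 2.71 ± 0.54 (adjusted p = 0.00338 and 0.00277), and without array B they were 2.05 and 1.81. With array A alone neither was called (adjusted p = 0.10 and 0.11). Birc5, survivin, rose by 2.64 ± 0.40, and the mitotic kinase Cdk1, undetected on naive arrays, was at least 3.02-fold higher (adjusted p = 0.00718, not called with array A alone). Of 18 mitosis genes tested 12 rose and none fell. The median of these 18 was 1.59, 3.10 on array B against 1.34 on A and 0.69 on C, and 0.90 without array B. Over all 29 mitosis genes on the array, without the detection filter, it was 0.79. With array A alone 2 were called, and without any single array 8 to 14, of which 9 without array B. Pbk, a mitotic kinase among the 15 largest rises, went from 5.02, 4.35 and 5.43 to 7.81, 8.78 and 7.22.

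**Figure D2:**
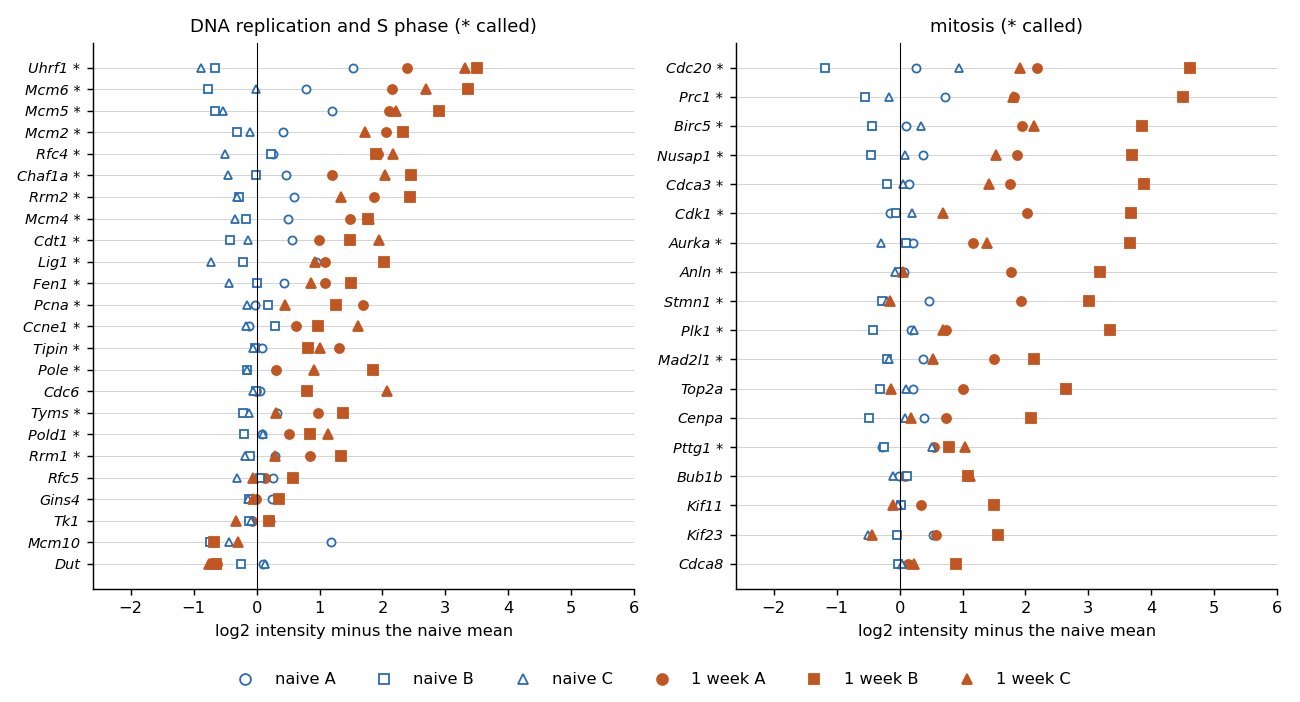
Log2 intensity minus the naive mean for each tested replication (left) and mitosis (right) gene, each point an array (open blue, naive; filled orange, 1 week; circles A, squares B, triangles C); asterisks mark called genes. Squares of array B lie farthest right for most mitosis genes, whereas replication genes are closer together.

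Promoters are shown because most tested replication and mitosis genes rose. The sequences are RefSeq windows of mouse build GRCm38.p6, from 250 bases before to 50 after the annotated start, written 5′ to 3′ along the gene. In Cdc20 (chr4:118437294-118437593, minus strand) and Prc1 (chr7:80294201-80294500, plus strand, the first of 2 windows) capitals mark the letters TTTGAA, the cell cycle homology region of mitotic promoters, and CCAAT, the box bound by NF-Y. In Mcm6 (chr1:128359656-128359955, minus strand) capitals mark E2F-type letters, TTTCCCGC, TTTGGCGC, TTTCGCGC or TTTGCCGC. All were searched on both strands, and the first of the E2F matches in Mcm6 overlaps a match on the other strand.
Cdc20: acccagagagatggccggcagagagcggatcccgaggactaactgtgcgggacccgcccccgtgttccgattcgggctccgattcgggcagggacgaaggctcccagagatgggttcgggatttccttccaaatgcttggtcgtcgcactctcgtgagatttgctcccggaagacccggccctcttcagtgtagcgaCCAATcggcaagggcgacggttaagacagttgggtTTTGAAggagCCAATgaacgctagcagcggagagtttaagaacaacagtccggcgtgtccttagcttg
Prc1: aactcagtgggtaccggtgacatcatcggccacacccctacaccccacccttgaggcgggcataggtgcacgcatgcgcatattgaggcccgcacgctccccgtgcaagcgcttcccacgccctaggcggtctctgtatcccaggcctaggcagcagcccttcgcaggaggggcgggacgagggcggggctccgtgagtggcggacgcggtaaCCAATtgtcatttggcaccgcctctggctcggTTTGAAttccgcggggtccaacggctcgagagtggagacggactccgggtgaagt
Mcm6: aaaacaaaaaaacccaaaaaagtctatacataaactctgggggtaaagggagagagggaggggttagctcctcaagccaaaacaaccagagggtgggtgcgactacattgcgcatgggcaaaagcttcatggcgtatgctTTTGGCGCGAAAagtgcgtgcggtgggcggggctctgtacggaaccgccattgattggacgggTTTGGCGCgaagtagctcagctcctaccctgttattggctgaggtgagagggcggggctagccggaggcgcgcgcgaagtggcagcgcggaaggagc
TTTGAA begins 18 bases before the start in Cdc20 and 5 before it in Prc1. It was present for 13 of the 17 tested mitosis genes with a window, against 14.5% of all tested genes with one and 17.9% of all windows. Among the 11 of these that were called higher 7 held it (63.6%, against 76.5% of the 17), so the letters did not set the called genes apart. E2F-type letters were present for 7 of the 20 replication genes with a window, against 4.54% of all tested genes and 2.26% of all windows, and for 6 of the 15 called higher. CCAAT was present for 12 of 17 mitosis genes and for 6 of the 11 called higher, but also for 43.8% of all tested genes and 37.4% of all windows. The windows shown are ones with matches. Birc5, which also rose, held neither TTTGAA nor CCAAT, and Mcm2 and Rrm2, which rose too, held no E2F-type letters. The matches describe letters in a window and no measured binding.

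The p53 target genes, which stop the cycle or promote repair after DNA damage, also shifted. Phlda3, an inhibitor of Akt signalling, was at 5.09, 4.63 and 4.91 on naive arrays, none of which detected it, and at 8.04, 7.23 and 7.58 at 1 week. The 1-week level was higher by at least 4.62-fold (adjusted p = 7.55e-06). Its second probe rose by 2.44. The cyclin-dependent kinase inhibitor Cdkn1a varied in naive liver, at 5.02, 8.94 and 6.97, and stood at 9.32, 9.63 and 9.0 at 1 week (2.34 ± 0.63, adjusted p = 0.0152). Its lowest 1-week array was only just above its highest naive array, and it was not called with array A alone (adjusted p = 0.11). Mdm2, which degrades p53, rose by 1.25 ± 0.22. Of 18 p53 targets 9 rose and none fell (1 fell without naive array A), with a median of 0.75, and array A alone called 6. Over all 23 targets on the array, without the detection filter, the median was 0.21.

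Macrophage genes of the scar-associated type were among the largest rises. Gpnmb, a lysosomal membrane glycoprotein, was at 4.48, 4.46 and 4.42 on naive arrays and at 9.78, 9.55 and 7.55 at 1 week, at least 11.7-fold higher (adjusted p = 7.26e-05). Cd63, a tetraspanin of late endosomes, went from 7.78, 7.24 and 7.40 to 11.60, 11.87 and 10.69 (3.92 ± 0.30, adjusted p = 2.45e-06), and its other probes rose by 3.17 and 2.05. Array C was the lowest 1-week array in both, yet above every naive array. Mmp12, the macrophage elastase, was undetected in naive liver and reached 8.29, 8.37 and 7.45, at least 6.18-fold higher (adjusted p = 1.79e-05). Lipoprotein lipase, Lpl, rose by 2.44 ± 0.37. Of 10 genes of this list 6 rose, a count that was 6 without any single array and with array A alone. Their median was 2.37, and over all 13 on the array, without the detection filter, it was 0.12. Fabp5, a fatty acid binding protein on the same list, fell by 2.06 ± 0.45 and was not called with array A alone. Outside the list, Clec7a, the beta-glucan receptor dectin-1, went from 6.15, 5.42 and 5.73 to 9.54, 8.66 and 7.96.

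Resident macrophage genes were called about as often as all genes, of which 25.6% were called in either direction. Of 12 Kupffer cell genes 1 rose and 2 fell, with a median of 0.51. With array A alone 4 rose, and without 1-week array B or C 3 did, while 1 fell without any single array other than 1-week array B. The iron exporter Slc40a1 rose by 0.83 ± 0.22, and the haemoglobin scavenger receptor Cd163 dropped from 7.81, 7.73 and 7.95 to 6.37, 6.31 and 6.68 (adjusted p = 5.17e-04). Adgre1, a marker of mature macrophages, changed by 0.92 ± 0.36 (adjusted p = 0.071) with arrays that do not overlap, and was called with array A alone (adjusted p = 0.023). Clec4f, restricted to Kupffer cells in the mouse, changed by 0.59 ± 0.31 and Timd4 by 0.53 ± 0.24, neither called. Of 16 monocyte and neutrophil genes 4 rose, but 1 without naive array B and 2 without naive array C or 1-week array A. Antigen presentation genes depended on array A. H2-Aa of MHC class II went from 7.53, 7.62 and 7.53 to 9.42, 8.83 and 8.81 (1.46 ± 0.28, adjusted p = 0.0021). Of 8 genes of the list 4 rose, 8 with array A alone, 1 without it and 7 without array B, with array medians of 1.62, 0.38 and 0.74. Leaving out naive array A left 2, and leaving out B or C left 1. Among 20 chemokines and cytokines 6 rose and 2 fell. The neutrophil attractant Cxcl1 rose by 1.70 ± 0.45 and Ccl4 by 1.48 ± 0.32, and Cxcl13 was undetected at 1 week and at least 1.75-fold lower (adjusted p = 0.0113). Without naive array B or 1-week array A 3 rose, and 1 to 3 fell without any single array. Neither Cxcl1 (1.02, adjusted p = 0.28) nor Cxcl13 was called with array A alone. Of the 28 interferon-stimulated genes 6 fell and 1 rose (2 rose without 1-week array C), with a median of -0.02 on array A and of -0.55 and -0.67 on arrays B and C. Without array A 7 fell, and the counts without another array were 1 to 4. Isg15 itself stood at 8.43, 8.49 and 8.46 in naive liver and at 8.34, 7.11 and 6.91 at 1 week, so that array A, on which it was not called, lay close to naive and arrays B and C below it.

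Matrix genes held calls in both directions at 1 week, and their counts are to be read against the 25.6% of all genes called. Of 12 collagen chains Col3a1 rose (1.51 ± 0.36, or 0.98 with undetected arrays at their lowest detected signal) and Col18a1 fell by 1.06, and the median was 0.16. Of 25 other matrix proteins 3 rose (1 without naive array A) and 1 fell (none without naive array A or C or 1-week array C, 2 without 1-week array B). The basement membrane linker Nid1 went from 6.58, 7.08 and 6.95 to 9.0, 9.66 and 8.30 (2.12 ± 0.31, adjusted p = 3.23e-04). Its groups were more than 1 log2 unit apart. Of 12 matrix proteases and inhibitors 4 rose, 2 with array A alone, with a median of 0.36, and of 0.09 over all 20 on the array without the detection filter. Collagenase Mmp13 was undetected on naive arrays and stood at 8.25, 8.11 and 5.95, at least 4.07-fold higher (adjusted p = 6.59e-04). Of 14 stellate cell and myofibroblast genes 3 rose and 1 fell. Pdlim7 and tropomyosin Tpm1, both actin-associated, rose by 1.70 ± 0.27 and 1.29 ± 0.21, whereas Tpm2 was undetected at 1 week and at least 1.77-fold lower (adjusted p = 0.015). It was not called with array A alone or without 1-week array C. The stellate markers Des and Acta2 changed by 0.13 and -0.34, neither called.

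Epithelial and fetal genes were split. Trefoil factor Tff3, a secreted mucosal peptide, was undetected in naive liver and stood at 7.68, 7.36 and 5.74 at 1 week, at least 2.86-fold higher (adjusted p = 0.00237). Ly6d was at 5.24, 4.63 and 4.99 and then at 7.87, 8.96 and 6.65, at least 5.35-fold higher (adjusted p = 0.0016). The keratins Krt8, Krt18 and Krt23 and the claudin Cldn4 were also called higher, though not with array A alone, whereas the classical duct markers Krt19 and Sox9 changed by -0.03 and -0.20 and were not called. In all, 6 of 16 bile duct and progenitor genes rose (2 with array A alone, 4 without naive array B or C or 1-week array B) with a median of -0.06. Of 9 oncofetal genes 5 rose. Glypican Gpc3 went from 5.83, 5.10 and 6.23 to 7.56, 7.37 and 7.46, and Afp, alpha-fetoprotein, was at least 2.29-fold higher (adjusted p = 0.0035). Among 22 tubulins, actins and actin regulators 10 rose and none fell (5 rose with array A alone, and 1 fell without it). Tubb6 rose by 1.93 ± 0.32, and Tuba8, undetected in naive liver, by at least 4.26-fold (adjusted p = 0.00159, not called with array A alone). Anxa2, a membrane-binding annexin, went from 9.62, 9.22 and 9.04 to 11.31, 12.42 and 10.84.

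**Figure D3:**
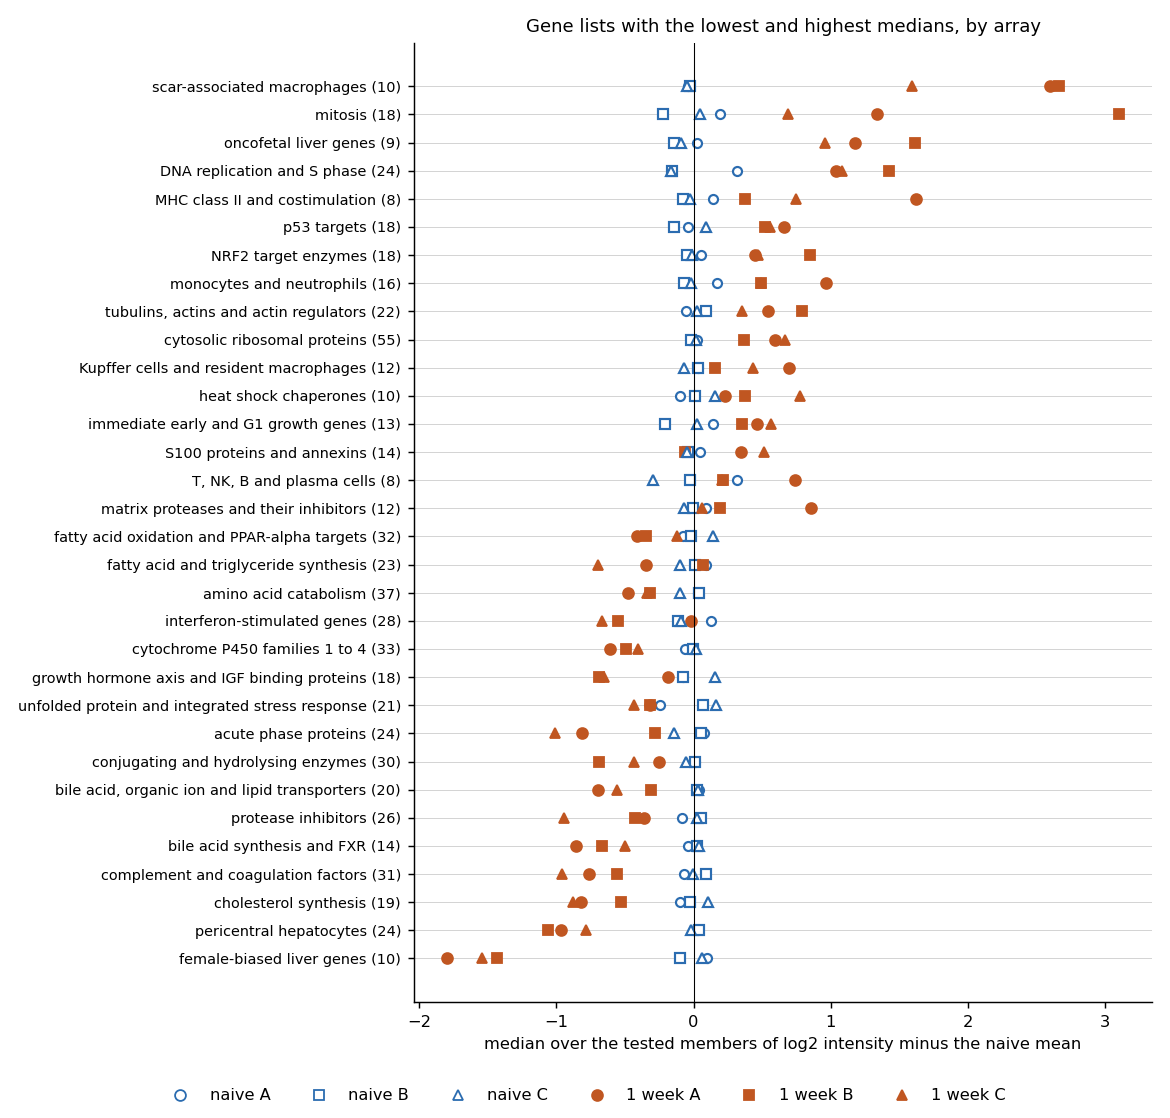
Median over the tested members (number in brackets) of log2 intensity minus the naive mean, by array, for the 16 gene lists with the lowest and the 16 with the highest medians among lists with at least 8 tested members. Scar-associated macrophage genes that passed the detection filter have medians of 2.60, 2.66 and 1.59 on arrays A, B and C, and female-biased genes -1.79, -1.43 and -1.54.

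Most genes known from pericentral hepatocytes fell. Slc1a2, the glutamate transporter of the hepatocytes next to the central vein, stood at 10.30, 10.15 and 10.06 on naive arrays and at 5.01, 5.69 and 6.84 at 1 week. Ornithine aminotransferase, Oat, of the same cells, went from 13.42, 13.20 and 12.84 to 9.63, 9.89 and 10.86. Array A was the lowest and array C the highest in both, and the groups were far apart. Rhbg, an ammonium transporter, was undetected at 1 week at 4.74, 4.76 and 4.74 and at least 2.20-fold lower (adjusted p = 8.53e-05). The toxifying enzyme Cyp2e1 fell by 1.27 ± 0.20, from 14.71, 14.65 and 14.63 to 13.32, 13.22 and 13.63. Of 24 pericentral genes 18 fell and none rose, with a median of -1.01 (-0.93 over all 26 on the array) and array medians of -0.97, -1.06 and -0.78. The count was 11 with array A alone and 13 to 17 without any single array. Of 18 periportal genes 2 fell and 1 rose (2 rose without 1-week array A), with a median of -0.09. The immunoglobulin receptor Pigr fell by 1.39 ± 0.26 and Igfals by 1.29 ± 0.27, while the phospholyase Etnppl rose from 9.39, 9.44 and 9.22 to 10.54, 10.23 and 11.05. The urea cycle genes Ass1, Arg1 and Cps1 changed by 0.10, 0.32 and -0.11, none called. The difference between the zones was not tested.

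**Figure D4:**
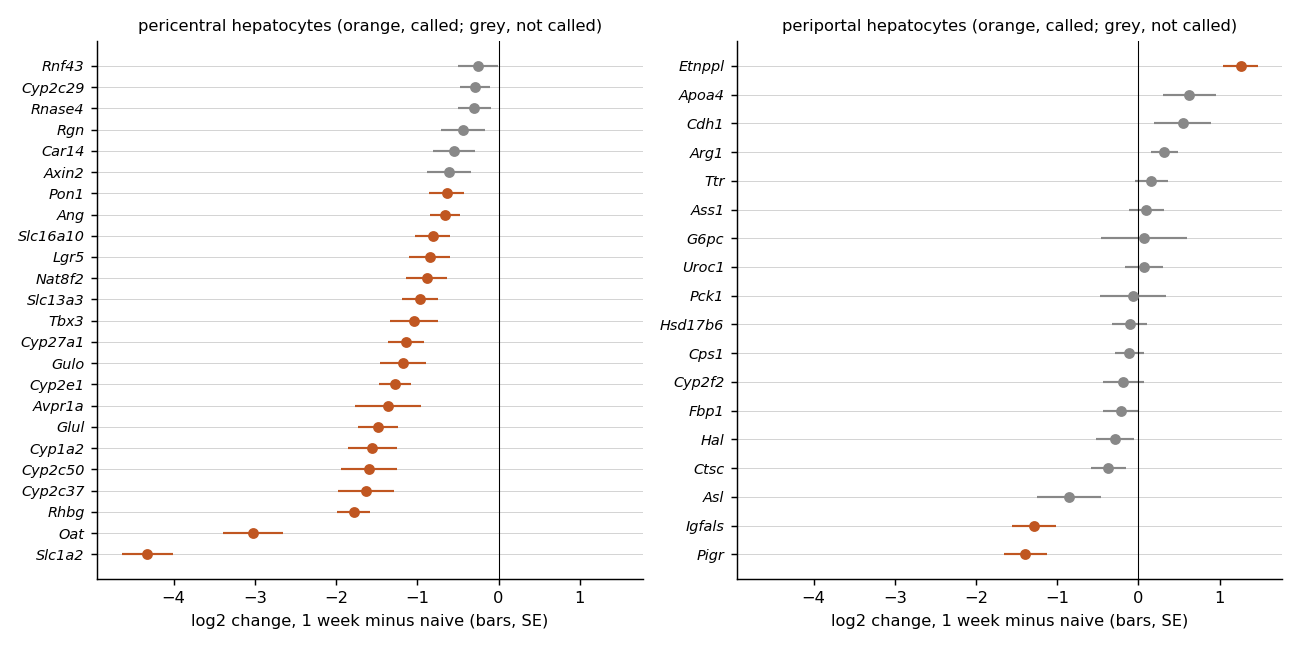
Log2 change from naive to 1 week with its SE for each tested pericentral (left) and periportal (right) gene, orange where called. All 24 pericentral estimates are negative and 18 are called, whereas periportal estimates fall on both sides of 0 with 3 called.

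Other hepatocyte functions fell in part. Of 33 cytochrome P450 genes of families 1 to 4, 14 fell and 3 rose. Cyp2b13 went from 12.30, 12.15 and 11.68 to 8.58, 8.36 and 10.32, so that array C was the least changed. Cyp2a5, a coumarin hydroxylase, rose by 1.24 ± 0.26 and was not called with array A alone. Cyp3a11 changed by 0.59 and was not called. Among 30 conjugating and hydrolysing enzymes 13 fell and 4 rose. Ugt3a1, a glucosyltransferase, stood at 10.68, 10.64 and 11.08 and then at 7.73, 7.54 and 7.50 (-3.21 ± 0.34, adjusted p = 4.62e-05), with 1-week arrays that lay close together. Carboxylesterase Ces3b fell by 2.71 ± 0.45, with its other probes at -2.96 and -2.67. Cyp8b1, which sets the cholic acid share of bile acids, fell by 2.0 ± 0.58 (-2.05 on array A alone, adjusted p = 0.13), and Cyp7b1 fell by 1.77 ± 0.20. Cyp7a1, the rate-limiting enzyme of bile acid synthesis, changed by 0.32 ± 0.33 (adjusted p = 0.515). Of 14 bile acid genes 7 fell and none rose. Among 20 transporters 10 fell and 2 rose, and the count that fell was 6 without naive array A or C or 1-week array A. The 2 that rose became 1 without naive array B or C or 1-week array A or C, and none with array A alone. The canalicular bile salt pump Abcb11 fell by 1.35 ± 0.24, from 10.78, 11.03 and 10.64 to 9.50, 9.97 and 8.95, whereas the canalicular pump Abcc2 rose by 1.05 ± 0.27 and was not called with array A alone.

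Cholesterol synthesis genes fell at 1 week and had medians near the naive level at the later points. Hmgcs1, which feeds the mevalonate pathway, stood at 14, 14.1 and 14.2 on naive arrays and at 13.16, 13.57 and 13.36 at 1 week (-0.73 ± 0.16, adjusted p = 0.00386). Nsdhl, a sterol demethylation enzyme, went from 7.28, 7.28 and 6.78 to 6.34, 6.36 and 5.10. Cyp51, of the same steps, was at 9.95, 10.07 and 10.14 and then at 9.80, 8.85 and 8.05, so that array A differed little from naive. Nsdhl, Cyp51 and Tm7sf2 were not called with array A alone. Of 19 genes 14 fell and none rose, with a median of -0.86 (7 fell with array A alone, 8 in a fit of the 6 arrays alone). Without any single array 10 to 14 fell. From 1 to 4 weeks 11 of the 19 were higher, where 8.81% of all genes were called in either direction, and from 1 to 6 weeks 9 were (9.18%). None were lower. Medians from naive were -0.09 at 4 weeks and -0.03 at 6 weeks. Hmgcs1 was 1.14 higher at 4 weeks than at 1 (adjusted p = 0.0017). Tm7sf2 remained low, at -1.03 and -1.41 from naive at 4 and 6 weeks. Insig1, a sterol-regulated inhibitor of the pathway, had probes at 0.81, -1.04 and -1.64, so its change is uncertain. Among 23 genes of fatty acid and triglyceride synthesis 5 fell, 2 without 1-week array C and 3 without naive array A or B, where leaving out naive array A also left 1 that rose.

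**Figure D5:**
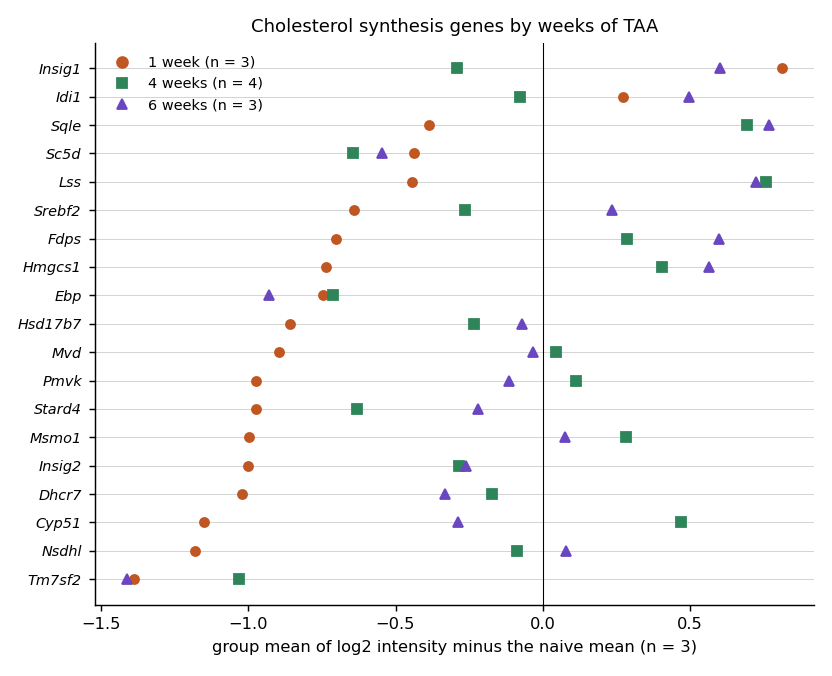
Group mean of log2 intensity minus the naive mean (3 arrays) for each tested cholesterol synthesis gene after 1 week (3 arrays), 4 weeks (4) and 6 weeks (3) of TAA. Most 1-week points lie left of 0, while the later points lie on both sides of it.

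Other large changes lay outside the groups described so far. Adam32, a metalloprotease-like protein known from testis, was undetected on naive arrays at 4.65, 4.49 and 4.52 and stood at 8.46, 7.91 and 8.40 at 1 week, at least 7.21-fold higher (adjusted p = 6.68e-07). Csrp3, a muscle LIM protein, went from 10.43, 10.62 and 10.16 to 7.65, 7.30 and 7.68, and its 3 probes fell by 2.86, 2.61 and 2.71. Dct, a melanin synthesis enzyme, went from 9.35, 8.98 and 9.03 to 7.06, 5.65 and 6.48. Csrp3 and Dct are best known from muscle and pigment cells. The thyroid hormone deiodinase Dio1 went from 9.71, 8.83 and 9.67 to 7.16, 7.0 and 5.82 (not called with array A alone), and the phospholipid transfer protein Pltp from 10.01, 9.97 and 9.84 to 7.71, 7.63 and 7.69. The Pltp change of -2.26 ± 0.16 (adjusted p = 1.61e-06) had a small error, with each group's arrays within a narrow range.

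Transcription factors and growth genes moved in both directions. The xenobiotic receptor CAR, Nr1i3, went from 9.21, 9.67 and 9.60 to 7.88, 7.20 and 7.64 (-1.92 ± 0.24, adjusted p = 1.43e-04). Of 23 hepatocyte transcription factors and nuclear receptors 5 fell and none rose (median -0.08), 3 without naive array A or C or 1-week array C, and 1 rose without naive array B or 1-week array B. Cebpa fell by 1.07 and was not called with array A alone. Jun, an immediate early factor, rose by 1.44 ± 0.26, from 5.60, 6.19 and 6.04 to 7.78, 6.92 and 7.45. Of 13 immediate early and growth genes 6 rose, 3 with array A alone, with a median of 0.42, and of 0.01 over all 20 on the array without the detection filter. The growth factor receptor Egfr fell by 1.22 (adjusted p = 0.0465) with groups that overlap. It was not called without naive array B or C or 1-week array A or C, nor with array A alone. Tnfrsf12a, the receptor of the cytokine TWEAK, rose by 2.30 and Ccn2, a matricellular growth factor, by 1.67, with 3 of 13 YAP and TEAD targets higher. The median of these 13 targets was 0.29, and 0.04 over all 18 on the array without the detection filter. Of all genes 25.6% were called in either direction and 13.3% higher.

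Enzymes of fuel metabolism were also among the calls. Their counts are to be read against the 25.6% of all genes called in either direction (13.3% higher, 12.3% lower). Of 26 genes of glucose metabolism 5 rose and 5 fell. Pkm, the pyruvate kinase form of dividing and non-hepatocyte cells, went from 7.97, 7.06 and 7.57 to 9.29, 9.26 and 8.39, while the liver form Pklr fell by 1.47 and liver glycogen synthase, Gys2, by 1.75 ± 0.32 (not called with array A alone). Of 32 fatty acid oxidation genes 8 fell and none rose, 1 with array A alone, 3 without naive array C and 5 without naive array B or 1-week array A or B. Acot3, a peroxisomal thioesterase of that list, fell by 1.82 and was not called with array A alone (adjusted p = 0.15).

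Many genes of plasma proteins made by hepatocytes fell. Coagulation factor VII, F7, went from 10.10, 10.45 and 10.26 to 8.40, 8.88 and 8.32 (-1.74 ± 0.23, adjusted p = 2.16e-04). Complement component C4b went from 12.61, 12.93 and 12.49 to 11.18, 12.02 and 10.91. All 1-week arrays were below all naive arrays in both. Of 31 complement and coagulation genes 19 fell and none rose, with a median of -0.81 (10 with array A alone, 13 to 19 without any single array). Apoa1 changed by 0.32 and Serpina1a by 0.02, neither called. Of 19 secreted hepatocyte proteins 7 fell and 1 rose, with 3 or 4 lower without any single array other than 1-week array B (8), and none higher without naive array A or B or 1-week array B. Of 24 acute phase genes 8 fell and none rose (1 rose without 1-week array C). Lrg1 fell by 1.90 ± 0.36. Naive array A bears on this list, since Saa1 stood at 10.46 there and at 6.61 and 6.33 on naive arrays B and C, against 6.28, 7.35 and 6.75 at 1 week. Orm2 showed the same, at 13.32 against 10.76 and 10.77, and its change of -1.87 was -1.02 and not called without naive array A. Without that array 6 genes of the list fell. Protease inhibitors went both ways, with 12 of 26 lower and 5 higher (3 higher without naive array B or 1-week array A, and 8 lower without naive array C or 1-week array C). Serpina12, vaspin, went from 9.59, 10.16 and 10.45 to 5.75, 6.11 and 5.16, and Spink1, a trypsin inhibitor, from 4.35, 4.51 and 4.35 to 10.18, 9.21 and 8.35. Spink1 was undetected in naive liver and at least 14.3-fold higher (adjusted p = 1.74e-04). Slpi, a secreted inhibitor of neutrophil elastase, stood at 7.48, 7.14 and 7.38 and then at 11.06, 11.54 and 10.12.

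Growth hormone secretion patterns set the sex bias of many mouse liver genes, and female-biased genes were tested here. Cux2, a female-specific repressor, went from 7.92, 6.80 and 7.51 to 4.92, 6.08 and 5.87 (-1.79 ± 0.33, adjusted p = 0.00168), and A1bg from 8.34, 9.04 and 10.33 to 7.13, 7.55 and 6.74. Of 10 female-biased genes 7 fell and none rose, with a median of -1.81 and array medians of -1.79, -1.43 and -1.54. Over all 15 on the array, without the detection filter, the median was -0.70. Between 6 and 7 fell without any single array and 4 with array A alone, where A1bg was not called. A male-biased gene fell too: Hsd3b5, a steroid dehydrogenase, went from 6.15, 7.21 and 8.33 to 4.92, 4.43 and 4.61, at least 3.58-fold lower (adjusted p = 3.70e-04). Socs2, a feedback inhibitor induced by growth hormone, fell by 1.95 ± 0.27, and Igf1 changed by -0.48 without a call.

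Genes of the stress of protein synthesis went both ways. Asparagine synthetase, Asns, an ATF4 target, was undetected on naive arrays at 5.0, 4.93 and 4.36 and stood at 7.44, 7.92 and 7.65 at 1 week, at least 4.79-fold higher (adjusted p = 4.43e-05). It was 2.25 lower again at 4 weeks (adjusted p = 0.0017). Its promoter (chr6:7693160-7693459, minus strand) holds the letters TGATGNAA, the form of composite C/EBP-ATF sites, 23 bases before the start, in capitals.
Asns: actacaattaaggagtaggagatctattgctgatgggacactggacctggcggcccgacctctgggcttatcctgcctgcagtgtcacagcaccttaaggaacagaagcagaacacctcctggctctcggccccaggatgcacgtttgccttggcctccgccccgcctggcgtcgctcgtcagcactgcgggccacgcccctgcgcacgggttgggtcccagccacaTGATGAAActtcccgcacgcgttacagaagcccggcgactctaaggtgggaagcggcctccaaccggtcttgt
These letters were found on either strand for 6 of 21 stress response genes with a window and for 2.86% of all tested genes and 3.97% of all windows. Atf3 and Chac1 both hold them, yet Atf3 was higher by at least 2.23-fold (adjusted p = 1.31e-04) and Chac1 fell from 7.06, 7.28 and 7.34 to 4.55, 5.33 and 4.59. Of 21 genes of this list 3 rose, with Ddit3 (CHOP) up by 1.76 ± 0.24, and 7 fell, 4 with array A alone, with a median of -0.46 that became -0.11 with median centring. The endoplasmic reticulum chaperones Calr and Pdia6 fell by 1.37 ± 0.24 and 1.14 ± 0.19, and Hspa5 (BiP) changed by 0.66 without a call.

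Cytosolic ribosomal protein genes shifted by a small amount in many members. Rpl13a was at 8.91, 8.92 and 9.36 on naive arrays and at 10.37, 10.08 and 10.27 at 1 week (1.18 ± 0.20, adjusted p = 8.04e-04). Rps26 went from 12, 12.2 and 11.98 to 13.06, 13.23 and 13.26. Of 55 genes 25 rose and 1 fell, with a median of 0.57 and array medians of 0.60, 0.37 and 0.67. The count of 25 was 14 with array A alone, 12 after median centring, and 15 and 16 without naive arrays B and C. Rpl22 was the exception and fell by 1.43 ± 0.19. Rpl23 had probes called in opposite directions (1.05, 0.53 and -0.999), so its direction is uncertain, and it was not called with array A alone. Of 32 proteasome subunits 3 rose (median 0.25), 5 without 1-week array A and 7 without array B. Of 66 respiratory chain genes 7 rose and 3 fell (median 0.16). Both lists held a smaller share of calls than all genes, of which 25.6% were called. The respiratory chain count that rose was 2 to 4 without naive array A, B or C or 1-week array A or C, and 13 without array B. The 3 that fell became 1 without naive array A, B or C or 1-week array B, and the median was -0.08 with median centring.

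Clock genes differed between the naive arrays. Dbp, an output gene of the circadian clock with a large daily swing, stood at 12.25 on naive array A and at 6.33 and 6.46 on B and C, and at 8.86, 7.12 and 9.16 at 1 week. Nr1d1, a clock repressor, was at 8.76, 6.79 and 6.54 and then at 4.90, 5.38 and 6.20 (-1.87 ± 0.45, adjusted p = 0.00826, and -1.17 without naive array A). Rgs16, a regulator of G protein signalling, was also highest on naive array A, at 10.82 against 8.68 and 8.73, and fell to 4.88, 7.54 and 5.69. Its change of -3.37 was -2.67 without naive array A and was still called. Of 15 clock genes 3 rose and 1 fell (2 fell without 1-week array B), whereas 7 rose without naive array A and 1 without naive array B or C or 1-week array A or C. The labels give no time of day, and its part in these values was not tested.

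Of 20 iron and haem genes 4 rose and 3 fell, 2 and 3 with array A alone. The transferrin receptor Tfrc rose by 1.73 ± 0.22, from 7.46, 7.56 and 7.76 to 9.50, 9.38 and 9.09, and Tmprss6, the protease that lowers hepcidin, fell by 1.56 ± 0.22. Hepcidin, Hamp, changed by 0.51 and was not called. Alpha-globin, Hba-a1, was at 13.57, 13.97 and 12.27 and then at 11.98, 12.55 and 9.60, with groups that overlap (-1.89 ± 0.60, adjusted p = 0.031). It was the 1 call among 6 erythroid and platelet genes tested, and none was lower with array A alone, without naive array A or B or 1-week array C, or in a fit of the 6 arrays alone. The summed intensity of 9 erythroid and platelet markers was 5418 to 17000 on naive and 1125 to 6577 on 1-week arrays, and the part of blood in other results was not tested.

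Some genes changed further between 1 and 4 weeks, in a comparison that shares the 1-week arrays. Where a gene was named for a large 1-week change, that choice favours a later value nearer to naive. Mmp12 was 1.83 lower at 4 weeks than at 1 week (adjusted p = 0.0058), Clec7a 1.95 lower (0.0069) and Tff3 2.33 lower (0.0096). Ly6d was 2.25 higher at 4 weeks (adjusted p = 0.014). Slc1a2 fell by a further 1.47 and Oat by 1.40. Of the 37 amino acid catabolism genes 11 had fallen at 1 week (21 with median centring), and 15 were lower at 4 weeks than at 1 and none higher. Over all 8027 genes 353 were higher and 354 lower at 4 weeks than at 1 (8.81% in all). Of 18 mitosis genes none was called between 1 and 4 weeks, which is close to that share in a list of this size. Collagen chains had a median change from naive of 0.16 at 1 week and of 0.83 at 4 weeks, and 3 of 12 were higher at 4 weeks than at 1.

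Probes of the same gene did not always move together. Of 1935 genes with 2 or more passing probes 531 were called, and all probes changed the same way in 432 of those. In 8 genes probes were called in opposite directions. Vmp1, an autophagy membrane protein, had 4 probes from 1.07 to -1.15, and Atp6ap2, a proton pump subunit, 4 from 0.95 to -1.13. For Plg, plasminogen, the brightest probe changed by -0.84 and the others by 0.55 and -2.50. Pkig rose by 2.69 on its brightest probe and its others changed by -0.41 and -0.01. Values of these genes describe a probe and not the gene. For genes whose array A and arrays B and C differ, As3mt, an arsenic methyltransferase, stood at 7.61, 8.51 and 8.01 in naive liver and at 7.40, 6.55 and 4.35 at 1 week, so that its fall of 1.94 was -0.65 on array A alone, where it was not called.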

How the data were processed

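RNA of whole liver was hybridised to 13 Illumina MouseRef-8 arrays. The table deposited by the authors holds, per the file headers, a non-normalized intensity and a detection p-value for each probe and array. It was exported from GenomeStudio, per the submitters' processing notes, with no version recorded in the sources used here. Intensities were background-corrected and quantile-normalized with neqc (offset 16) in limma 3.58.1 under R 4.3.3. Of 25697 probes 23978 have 1 gene symbol and 1719 none. Symbols were updated through the gene identifier (23962 probes) or accession (9), 7 were kept as given, and 8 changed. Each gene is represented by its passing probe of highest mean. All 13 arrays entered the limma fit, with a mean per group, and p-values were two-sided and adjusted over all 8027 genes.

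The authors also deposited a table of processed values. Its column medians lie between -0.00176 and 0.00134, so the values appear centred, and their normalization is not stated. Its 1-week changes correlate with those of quantile-normalized log2 raw intensities at r = 0.998 with a slope of 0.906. That is over all 25697 probes, without the detection filter, where these deposited values run the same way on a log2 scale. It was used only as an alternative.

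Genes undetected on all arrays of the dimmer group have a lower bound, in which each array of the dimmer group counts at the array's lowest detected signal unless the gene itself is brighter. The number of arrays limits the precision. In data simulated from the values of these arrays for 8027 genes, changes of 0.5, 1, 2 and 3 log2 units were recovered for 3, 33, 47 and 50 of 50 genes each, with 8 false among 141 calls. The simulation changed only those genes and gave all arrays the same independent spread for each gene. In the data 2051 genes were called and the arrays were unlike, so these rates need not hold for the comparison itself. The 15 largest rises and falls, the first 3 and up to 3 further called members of each list, genes that separate the array sets, genes with disagreeing probes and genes whose arrays disagree were named by rule. Other genes named were chosen after their values were seen. The members and gene lists were chosen with earlier results of these data known. Alternatives covered the arrays fitted, the filter, background correction, normalization, the choice of probe, array weights, the variance model and the processed table.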

Additional observations from a re-analysis of the deposited data

Results flagged for a closer look

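Among the 15 largest rises and the 15 largest falls at 1 week, 9 genes differed between 4 weeks and 1 week. The difference was tested with limma and adjusted over all genes, of which 8.81% were called. Macrophage elastase Mmp12 was lower at 4 weeks, with a log2 difference of -1.83, as were the receptor Clec7a (-1.95), the protease inhibitor Slpi (-1.33) and asparagine synthetase Asns (-2.25). The endosomal tetraspanin Cd63 was higher still at 4 weeks, by 0.99. Of the genes that had fallen, Slc1a2 (-1.47) and Oat (-1.40) were lower again, while the muscle LIM protein Csrp3 was 1.09 higher and the glucuronosyltransferase Ugt1a2 1.63 higher. The 4-week arrays are compared here with the same 1-week arrays that entered the comparison with naive liver, so a value of those arrays enters both. The genes were chosen for extreme 1-week changes, and that choice favours a later value nearer to naive.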

How the results depend on the processing

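The counts of called, higher and lower genes (2051, 1067 and 984) fell to 1099, 585 and 514 in a fit of the 6 arrays alone and to 1148, 647 and 501 with the array set as a term. Leaving out each array in turn gave 1381 to 2237 called, 725 to 1170 higher and 656 to 1067 lower. The lowest counts came without naive array B and the highest without 1-week array B. The other alternatives gave 1548 (array weights) to 2699 calls (every named probe tested, 10559 in all), with 1279 higher and 1420 lower in the latter. Of 295 named genes 218 were called, 120 of them under every alternative and 212 with 1 sign throughout. Direction turned for Ppara with median centring (0.034), for Zxda with the array set as a term (-0.061), and with the mean of a gene's probes for Vmp1 (-0.24), Ptp4a2 (-0.12), Atp6ap2 (-0.14) and Anapc5 (-0.31). For Ppara the cause was not tested. Zxda is among the genes that separate the array sets, so with the set as a term its change is that of array A. The probes of the last 4 genes disagree. Replicate numbers stand only in the processed table, and deviations of same-numbered naive and 1-week arrays correlated across genes at 0.005, 0.107 and 0.099. These values cannot decide whether the numbers pair the samples, since a pairing could bear on few genes. With a replicate block on those processed values, 1709 genes were called, 876 higher and 833 lower, against 2064 without it. Array C of the 1-week group is the dimmest, which limits what it can show for weakly expressed genes.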
